A study of Mus musculus with 30 samples.

Results

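Macrophages sorted from 3LL-R tumours were sequenced before and after 24 h of culture, and the comparison described here asked which genes changed differently in culture in the 2 macrophage subsets of these tumours. It took the log2 change from fresh to cultured MHC-IIlo cells and subtracted the log2 change from fresh to cultured MHC-IIhi cells. It was fitted on the 20 libraries, of 30 in the series, that had received no lactate, in 1 model with 4 groups of 5. 3LL-R is a line of the Lewis lung carcinoma, and the tumours grew under the skin of wild-type C57BL/6 mice. All 4 groups carried that wild-type genotype and none received an added agent. Fresh libraries came from 30000 cells sorted straight into lysis buffer, and cultured libraries from 250000 sorted cells that were lysed in the culture plate after 24 h without added lactate. Cell number and lysis therefore went with culture in both subsets and cannot be told apart from it. The labels call the 5 libraries of a group biological replicates without saying whether separate mice gave them, so the p-values measure the spread between these libraries.

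MHC class II molecules display peptides to helper T cells, and their amount on the cell surface was the gate that separated the subsets. Tumour-associated macrophages with little MHC class II are known for lying in poorly oxygenated parts of tumours and for making arginase and the mannose receptor, and those with much of it for making more inflammatory mediators. Plating takes macrophages away from the oxygen, cytokine and metabolite supply of the tumour. A gene can enter this comparison because it moved in 1 subset only, because it moved further in 1 of them, or because it moved in opposite directions.

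The libraries held 16913250 to 21407666 counts in fresh MHC-IIhi cells, 17838799 to 20999665 in fresh MHC-IIlo cells, 22030754 to 29152519 in cultured MHC-IIhi cells and 24050876 to 29928350 in cultured MHC-IIlo cells. Mitochondrially encoded genes took 0.833% to 1.31%, 0.78% to 1.02%, 0.444% to 0.562% and 0.209% to 0.338% of these counts in the same order. Fresh libraries went with their labels: H2-Ab1, which encodes an MHC class II chain, stood at 4403 to 5416 CPM (counts relative to library size, scaled by the trimmed mean of M values) in MHC-IIhi and at 55.4 to 124 in MHC-IIlo cells. The macrophage markers Adgre1, Cd68 and Csf1r were found in every library, with lowest values of 101, 659 and 310 CPM. The cultured MHC-IIlo library numbered 3 in the count table stood apart with 72.7 CPM of H2-Ab1 against 15 to 28.7 in the other 4, so results on MHC class II genes are given with and without it.

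Of 13682 genes with enough counts to test, 1957 (14.3%) had a culture change that differed between the subsets at an adjusted p under 0.05. The change was higher in MHC-IIlo cells for 825 genes (6.03% of those tested) and lower for 1132 (8.27%), where higher and lower are used throughout for the change in MHC-IIlo relative to MHC-IIhi cells. Culture itself changed 57.5% of the tested genes in MHC-IIlo and 62.0% in MHC-IIhi cells, so most genes that moved in culture are not among those called here. The lower genes differed more: the median difference was -1.02 on the log2 scale against 0.66 for the higher genes, and 577 of them, against 185 higher genes, exceeded 1 in size. The median over all tested genes was -0.02. On the authors' FPKM values, as log2(FPKM + 1) with limma over 11338 genes, 55.1% of the called genes were higher, against 42.2% here. The 2 settings differ in input values, filter and test, and the cause was not tested. Without the 4 fresh libraries numbered 4 and 5 in both subsets, a choice made after seeing that they were highest in Vegfa and Nr4a3, 1077 genes were called, 375 higher and 702 lower.

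Among the 1132 lower genes, 278 rose in MHC-IIhi cells without a called change in MHC-IIlo cells, 259 fell in MHC-IIlo cells without a called change in MHC-IIhi cells, 233 fell in both, 228 rose in both and 129 rose in MHC-IIhi while falling in MHC-IIlo cells. Among the 825 higher genes, 303 fell in both subsets and 267 fell in MHC-IIhi cells without a called change in MHC-IIlo cells. A further 115 rose in MHC-IIlo cells alone by these calls, 89 rose in both and 48 rose in MHC-IIlo while falling in MHC-IIhi cells. Opposite called changes in the 2 subsets were thus found for 177 genes. A call in 1 subset and not in the other is here backed by the test of the difference itself, which all of these genes passed. The scatter plot of culture changes shows the lower genes spread further from the line of equal change than the higher ones.

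**Figure D1:**
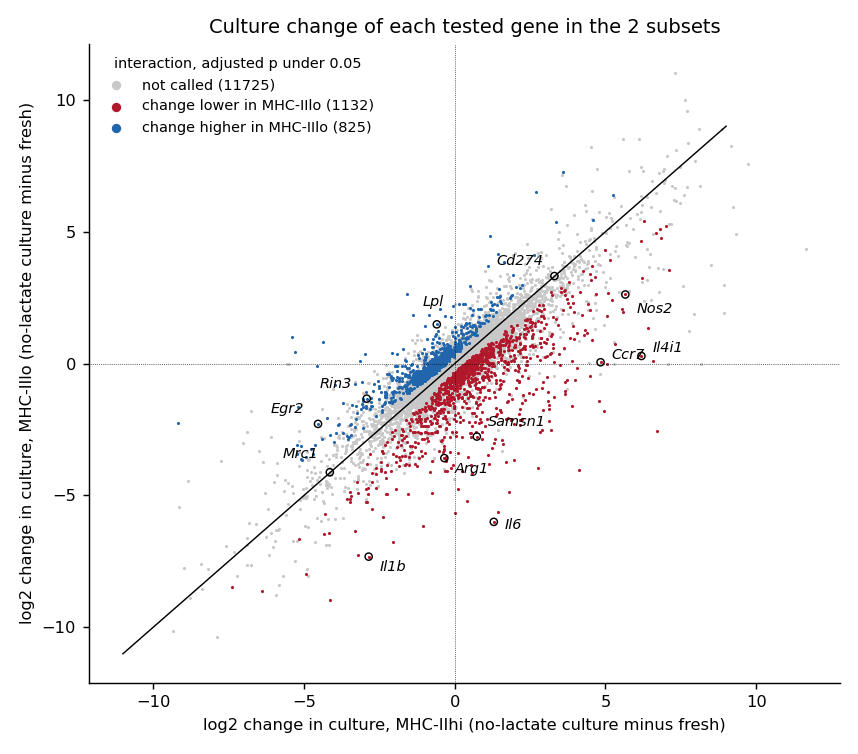
Log2 change in culture of each of 13682 tested genes in MHC-IIhi (x axis) and MHC-IIlo cells (y axis), with the line of equal change. Blue points are the 825 genes whose change was higher in MHC-IIlo cells, red points the 1132 genes whose change was lower, and circles mark 12 genes described in the text, of which Cd274 and Mrc1 were not called.

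The same genes can be read as gaps between the subsets before and after culture. MHC-IIhi and MHC-IIlo cells differed in 25.3% of the tested genes when fresh and in 27.3% when cultured. Of the lower genes, 510 had no called gap in fresh cells and a gap after culture, 322 lost theirs, 117 had a gap that widened, 113 a gap that changed sign and 15 a gap that narrowed. Of the higher genes, 307 gained a gap, 306 lost it, 91 changed its sign, 36 narrowed and 35 widened it. Samsn1, Tnfrsf9 and Nos2 were among those whose gap opened. Rin3 and H2-DMb1 had gaps that narrowed, and Il6, Cxcl3, Lpl and Syn1 had gaps that changed sign. A gap that is called in one state and not in the other follows the threshold as well as the size, so these counts are a sorting of genes that had already passed the test of the difference.

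**Figure D2:**
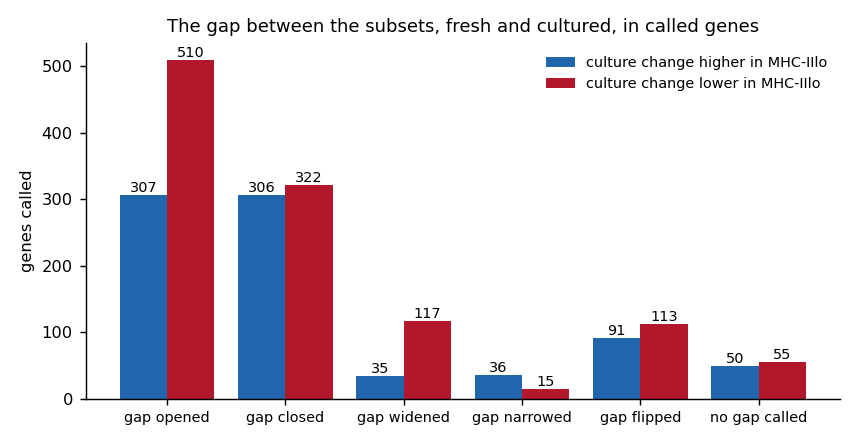
Number of called genes (y axis) by what happened to the gap between the subsets from fresh to cultured cells (x axis), in blue for the 825 genes with a culture change higher in MHC-IIlo cells and in red for the 1132 with a lower one. The tallest bar is the 510 lower genes whose gap was called only in cultured cells.

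The neutrophil-attracting CXC chemokines were among the genes with the widest differences. Cxcl1, Cxcl2 and Cxcl3 lie close together on chromosome 5 and encode ligands of the receptor CXCR2. In macrophages these genes, like the cytokine gene Il6, are classical targets of NF-kB, a family of transcription factors that toll-like receptors and cytokine receptors switch on. The 250 bases before the RefSeq start of each of these genes are shown because all 4 genes moved apart between the subsets in culture, with the κB match GGNNTTTCC, searched on both strands, in capitals. The sequences are from RefSeq on GRCm38.p6, on the strand of the gene. The starts in the count table differ, so that the last bases of the Cxcl1 and Cxcl2 windows lie inside the genes as that table gives them.

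Cxcl1 (chr5:90890995-90891244, plus strand): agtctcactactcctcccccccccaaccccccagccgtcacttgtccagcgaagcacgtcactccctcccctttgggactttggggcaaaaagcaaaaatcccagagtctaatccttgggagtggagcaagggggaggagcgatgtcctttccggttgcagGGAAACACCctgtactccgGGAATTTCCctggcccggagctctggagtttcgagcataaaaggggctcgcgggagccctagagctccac
Cxcl2 (chr5:90903649-90903898, plus strand): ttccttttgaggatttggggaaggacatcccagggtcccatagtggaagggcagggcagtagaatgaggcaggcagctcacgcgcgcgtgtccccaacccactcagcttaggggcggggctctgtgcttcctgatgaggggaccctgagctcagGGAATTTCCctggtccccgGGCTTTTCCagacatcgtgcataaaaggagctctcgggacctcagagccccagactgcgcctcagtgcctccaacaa
Cxcl3 (chr5:90785851-90786100, plus strand): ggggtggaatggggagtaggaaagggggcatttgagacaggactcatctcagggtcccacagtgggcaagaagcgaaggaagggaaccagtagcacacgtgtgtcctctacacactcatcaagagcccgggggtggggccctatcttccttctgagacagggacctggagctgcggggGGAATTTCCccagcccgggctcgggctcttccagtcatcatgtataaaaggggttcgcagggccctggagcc
Il6 (chr5:30012864-30013113, plus strand): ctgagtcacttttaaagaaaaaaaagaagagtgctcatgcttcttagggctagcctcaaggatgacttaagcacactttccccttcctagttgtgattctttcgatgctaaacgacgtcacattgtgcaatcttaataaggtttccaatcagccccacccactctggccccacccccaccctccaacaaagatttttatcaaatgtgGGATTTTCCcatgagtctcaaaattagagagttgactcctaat

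Cxcl1 and Cxcl2 held 2 matches each and Cxcl3 and Il6 held 1 each, against a share of 5.36% of 9705 tested genes with a promoter sequence that held any match. A match is a description of these letters and not evidence of a bound site.

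Cxcl3 (ENSMUSG00000029379, chr5:90786103-90789600) measured 859, 575, 526, 1122 and 929 CPM in the 5 fresh and 155, 82.5, 74.9, 107 and 69 CPM in the 5 cultured MHC-IIlo libraries. In MHC-IIhi cells it measured 324, 111, 201, 371 and 374 CPM fresh and 955, 825, 672, 627 and 1128 CPM cultured. All cultured MHC-IIlo libraries thus lay below all fresh ones of their subset, while all cultured MHC-IIhi libraries lay above their fresh ones. The log2 change was -3.04 in MHC-IIlo and 1.61 in MHC-IIhi cells, a difference of -4.64 ± 0.43 (SE; adjusted p = 4.79e-07), so a gene that was higher in fresh MHC-IIlo cells became higher in MHC-IIhi cells after culture.

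Cxcl1 (ENSMUSG00000029380, chr5:90891241-90893115) went the same 2 ways, from 79.3, 45.3, 82.6, 189 and 183 to 22.7, 11.1, 17, 17.9 and 11.7 CPM in MHC-IIlo and from 45.2, 17.3, 51, 94.4 and 116 to 168, 170, 136, 125 and 226 CPM in MHC-IIhi cells. The fresh groups overlapped and the cultured groups did not. Its difference was -4.20 ± 0.58 (adjusted p = 4.38e-05). Cxcl2 (ENSMUSG00000058427, chr5:90903871-90905938) fell in both subsets, from 955, 540, 752, 1723 and 1483 to 49, 23, 37.5, 40 and 27.9 CPM in MHC-IIlo and from 824, 359, 627, 1337 and 1399 to 327, 308, 222, 208 and 500 CPM in MHC-IIhi cells. The fall was -4.94 on the log2 scale in the former and -1.54 in the latter, a difference of -3.40 ± 0.50 (adjusted p = 9.39e-05). In all 3 genes the fresh libraries numbered 4 and 5 held the highest values of both subsets, and the difference was lower under each alternative tried, between -4.51 and -3.95 for Cxcl1, -3.67 and -2.99 for Cxcl2 and -4.87 and -4.44 for Cxcl3.

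Of 11 CXC chemokine genes tested, 6 were lower and none higher, with a median difference of -1.16. The others called were Cxcl5, which shares the receptor of Cxcl1 (-4.01 ± 0.58, adjusted p = 7.54e-05), the interferon-induced Cxcl10 and the transmembrane chemokine Cxcl16. Ppbp and Pf4, chemokines best known from platelets, had differences of -1.16 ± 0.43 and -0.68 ± 0.32 and did not pass (adjusted p = 0.0738 and 0.184). Of 12 CC chemokines, which attract mostly monocytes and lymphocytes, 8 were not called. Few were called in either direction, where 8.27% of all tested genes were lower and 6.03% higher. In this list 2 were lower (Ccl2 with -1.38 ± 0.34 and Ccl22) and 2 higher. The higher ones were the neighbours Ccl6 (1.39 ± 0.21, adjusted p = 0.000132) and Ccl9 (1.13 ± 0.24, adjusted p = 0.00328), both of which fell in each subset and fell further in MHC-IIhi cells, Ccl6 with a log2 change of -4.92 against -3.53.

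Inflammatory cytokines and enzymes were lower in the same way, 15 of 22 tested genes against none higher, with a median log2 change of -0.40 in MHC-IIlo and 1.47 in MHC-IIhi cells. Il6 (ENSMUSG00000025746, chr5:30013114-30019981), the gene of interleukin 6, measured 30.6, 11.6, 16.9, 34.4 and 25.3 CPM in fresh and 0.348, 0.385, 0.609, 0.251 and 0.227 CPM in cultured MHC-IIlo cells. The MHC-IIhi libraries of Il6 held 9.54, 3.43, 7.86, 11.8 and 11.4 CPM fresh and 34.7, 11.4, 17.1, 13.6 and 31.4 CPM cultured. The cultured MHC-IIlo libraries lay below every other library, and the difference was -7.30 ± 0.58 (adjusted p = 6.68e-08). Il6 was a gene of low level in all groups, with fewer than 1 CPM in each cultured MHC-IIlo library.

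Il1b (ENSMUSG00000027398, chr2:129364570-129371139), which encodes the inflammasome product interleukin 1β, fell in both subsets. It went from 579, 679, 675, 1245 and 864 to 8.17, 6.78, 2.82, 4.97 and 2.5 CPM in MHC-IIlo and from 1472, 1421, 1522, 2642 and 2644 to 417, 175, 240, 139 and 372 CPM in MHC-IIhi cells. Fresh MHC-IIhi cells already had more of it, and the gap widened from -1.26 to -5.73 on the log2 scale (MHC-IIlo minus MHC-IIhi), a difference of -4.47 ± 0.48 (adjusted p = 2.3e-06). Ptgs2, the inducible cyclooxygenase, measured 105 to 376 CPM fresh and 11.5 to 16.8 CPM cultured in MHC-IIlo cells, and 106 to 335 and 72.2 to 435 CPM in MHC-IIhi cells, whose fresh and cultured libraries overlapped. Its difference was -3.76 ± 0.63 (adjusted p = 0.000374).

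Further lower members were Il1a, Il12a, Il12b, Il10, Lif, Osm and the colony-stimulating factors Csf1, Csf2 and Csf3. Il1rn, the antagonist of the interleukin 1 receptor, had a difference of 0.01 ± 0.23 with a 95% interval of -0.47 to 0.49, and Tgfb1 one of 0.23 ± 0.17. Neither passed (adjusted p = 0.994 and 0.413). Tnf was tested and did not pass either.

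NF-kB subunits and targets were lower for 12 of 21 genes and higher for 1, with a median of -0.63. Traf1, an adaptor of tumour necrosis factor receptors, had a difference of -1.63 ± 0.16 (adjusted p = 7.37e-07), Sod2, the mitochondrial superoxide dismutase, -1.36 ± 0.18 (2.23e-05), Ier3, an early survival gene, -1.22 ± 0.15 (1.61e-05), and the subunit gene Nfkb2 -0.92 ± 0.13 (4.01e-05). Nfkbia, the inhibitor that NF-kB induces, had -1.28 ± 0.44 and missed the threshold in this fit (adjusted p = 0.0579), but passed it with DESeq2 (adjusted p = 0.0495) and with limma voom (adjusted p = 0.0266). Promoter windows were found for 18 of the tested members of the list, and 9 of them (50%) held the κB match. Toll-like receptors and their adaptors were lower for 5 of 21 genes, Tlr5 (-2.64 ± 0.52), Tlr7 (-1.12 ± 0.27), Cd14 (-1.56 ± 0.30), Irak3 (-1.18 ± 0.22) and Traf6. Without cultured MHC-IIhi library 7, 8 of this list were lower.

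3 genes outside these lists were among the widest differences of well-expressed genes. Samsn1 (ENSMUSG00000022876, chr16:75858793-76022270), an adaptor protein of haematopoietic cells, had the smallest adjusted p of the genes named here. It measured 56.1, 58.6, 51.4, 62.9 and 57.4 CPM in fresh and 8.31, 9.9, 8.11, 8.44 and 7.31 CPM in cultured MHC-IIlo cells, and 57.7, 53.4, 46.1, 56 and 57.4 and 101, 67.3, 110, 94.8 and 77.1 CPM in MHC-IIhi cells. The fresh groups overlapped, MHC-IIlo cells fell and MHC-IIhi cells rose with no overlap, and the difference was -3.50 ± 0.16 (adjusted p = 1.31e-11).

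Tnfrsf9 (ENSMUSG00000028965, chr4:150914562-150946102), the costimulatory receptor 4-1BB, measured 287, 291, 248, 404 and 240 CPM in fresh and 12.4, 21.4, 18.6, 16 and 19.7 CPM in cultured MHC-IIlo cells. It measured 269, 273, 255, 405 and 280 and 245, 292, 169, 182 and 342 CPM in MHC-IIhi cells, whose 2 groups overlapped. Its difference was -3.79 ± 0.28 (adjusted p = 2.25e-08). Fpr1, the receptor for formylated bacterial peptides, measured 43 to 52.1 and 10.7 to 43.1 CPM in fresh and cultured MHC-IIlo cells and 18.3 to 27.5 and 79.6 to 182 CPM in MHC-IIhi cells, a difference of -3.59 ± 0.40 (adjusted p = 3.48e-06).

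**Figure D3:**
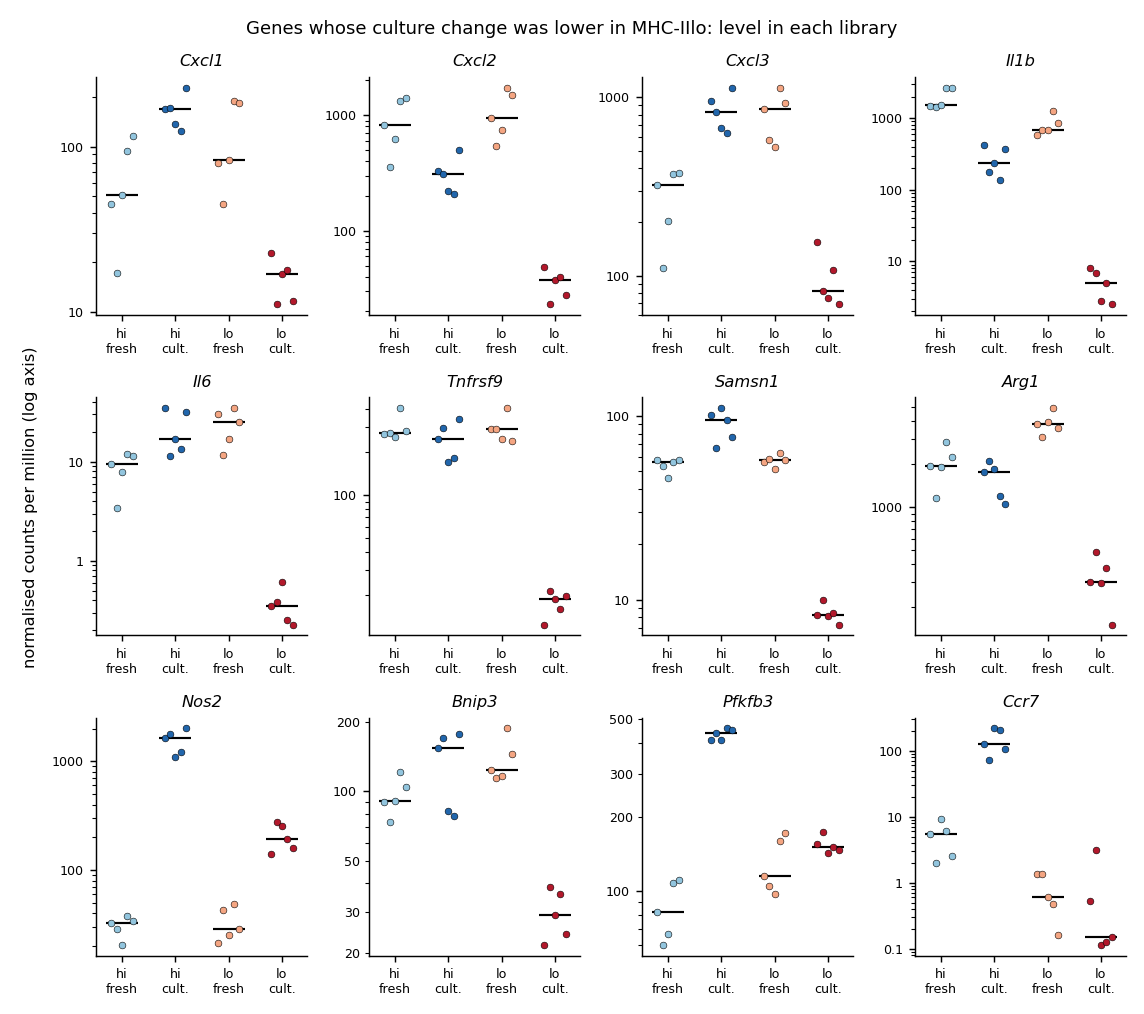
Level of 12 genes whose culture change was lower in MHC-IIlo cells, in CPM on a log axis, with 1 point per library, a dash at the median of the 5 libraries, and the groups fresh and cultured MHC-IIhi (blue) and fresh and cultured MHC-IIlo (red) from left to right. In all 12 panels every cultured MHC-IIlo library lies below every cultured MHC-IIhi library, and in Pfkfb3 and Ccr7 the cultured MHC-IIlo libraries overlap the fresh ones of their subset.

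Arginine is the shared substrate of nitric oxide synthase and arginase, whose genes are the usual markers of opposite macrophage states, and both were lower. Nos2 (ENSMUSG00000020826, chr11:78920787-78960254), the inducible nitric oxide synthase, rose in both subsets. It went from 21.6, 43.3, 25.2, 48.6 and 28.6 to 141, 279, 257, 194 and 158 CPM in MHC-IIlo and from 32.8, 28.6, 20.5, 37.5 and 34.1 to 1633, 1788, 1098, 1220 and 2008 CPM in MHC-IIhi cells. The fresh groups overlapped and the cultured ones did not: the rise was 2.62 against 5.66 on the log2 scale, a difference of -3.04 ± 0.34 (adjusted p = 3.23e-06).

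Arg1 (ENSMUSG00000019987, chr10:24915208-24927470), arginase 1, measured 3811, 3100, 3910, 4917 and 3575 CPM in fresh and 302, 490, 295, 375 and 151 CPM in cultured MHC-IIlo cells. In MHC-IIhi cells it measured 1933, 1158, 1921, 2867 and 2229 CPM fresh and 1759, 2108, 1836, 1205 and 1060 CPM cultured, with overlap. It was higher in fresh MHC-IIlo cells and lower in cultured ones, with a difference of -3.24 ± 0.37 (adjusted p = 4.94e-06). Slc7a2, the arginine transporter that activated macrophages induce, was lower too (-2.88 ± 0.33, adjusted p = 4.6e-06), and so was the mitochondrial arginase gene Arg2 (adjusted p = 0.000374). Of 17 genes of arginine and polyamine metabolism, 6 were lower (with Odc1 and Smox) and Amd1 was higher. Irg1, whose product makes itaconate in activated macrophages, rose in both subsets, from 12.6 to 24.8 to 395 to 509 CPM in MHC-IIlo and from 5.02 to 10.1 to 715 to 1172 CPM in MHC-IIhi cells, a difference of -2.09 ± 0.26 (adjusted p = 1.44e-05).

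Genes of the response to low oxygen made up the list with the largest called share. Hypoxia-inducible factors are held at low levels by oxygen-dependent degradation and drive genes for glycolysis, angiogenesis and mitophagy from the core element ACGTG. Of 22 tested genes of the hypoxia response, 18 (81.8%) were lower and none higher, with a median difference of -1.35, a median change of -1.48 in MHC-IIlo and of -0.21 in MHC-IIhi cells. Between 17 and 21 were lower under each alternative. The windows before the RefSeq starts of the hypoxia genes Bnip3 and Ddit4 and of Pgk1, from the glycolysis list, are shown. The core element is in capitals, and each window is on the strand of the gene. The last bases of the Bnip3 window lie inside the gene as the count table gives it. In Bnip3 both matches are the 2 strands of 1 palindrome, CACGTG, which is also the E-box bound by other factors.

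Bnip3 (chr7:138909507-138909756, minus strand): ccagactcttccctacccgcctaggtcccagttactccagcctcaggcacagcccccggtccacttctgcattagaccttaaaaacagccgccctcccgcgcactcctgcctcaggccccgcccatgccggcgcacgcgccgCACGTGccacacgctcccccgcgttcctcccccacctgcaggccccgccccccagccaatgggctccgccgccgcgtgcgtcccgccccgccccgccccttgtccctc
Ddit4 (chr10:59951771-59952020, minus strand): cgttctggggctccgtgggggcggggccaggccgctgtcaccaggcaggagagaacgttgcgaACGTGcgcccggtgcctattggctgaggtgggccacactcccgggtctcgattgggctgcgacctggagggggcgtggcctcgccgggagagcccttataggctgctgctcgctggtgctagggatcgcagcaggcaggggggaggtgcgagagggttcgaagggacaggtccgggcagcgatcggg
Pgk1 (chrX:106186850-106187099, plus strand): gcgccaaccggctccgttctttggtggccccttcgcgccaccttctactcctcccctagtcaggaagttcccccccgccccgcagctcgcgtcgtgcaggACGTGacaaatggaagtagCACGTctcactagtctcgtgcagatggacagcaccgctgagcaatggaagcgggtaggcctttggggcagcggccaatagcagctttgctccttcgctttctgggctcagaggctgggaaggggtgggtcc

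The element was found in 9 of 18 hypoxia genes with a window (50%) and in 10 of 22 glycolysis genes (45.5%), where 21.7% of the 9705 windows of tested genes held it.

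Bnip3 (ENSMUSG00000078566, chr7:138890836-138909519), a mitophagy receptor, measured 124, 114, 117, 187 and 144 CPM in fresh and 21.6, 38.3, 29.2, 36.1 and 24.1 CPM in cultured MHC-IIlo cells. The MHC-IIhi libraries of Bnip3 held 90.1, 73.5, 90.9, 122 and 104 CPM fresh and 153, 170, 82.2, 78.5 and 177 CPM cultured, with overlap. The cultured MHC-IIlo libraries lay below all others, a difference of -2.66 ± 0.32 (adjusted p = 7.46e-06).

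Ddit4 (ENSMUSG00000020108, chr10:59949675-59951770), an inhibitor of the growth kinase mTORC1, went from 31.5, 36.9, 40.7, 59.8 and 40.9 to 6.95, 4.35, 5.02, 4.97 and 2.61 CPM in MHC-IIlo cells. It measured 56, 42.5, 54.1, 88.4 and 74.8 CPM in fresh and 54.6, 49.9, 40.4, 28.8 and 75.6 CPM in cultured MHC-IIhi cells. Here too only the MHC-IIlo groups separated, with a difference of -2.79 ± 0.36 (adjusted p = 1.99e-05).

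Vegfa, the angiogenic growth factor, fell in both subsets. It went from 265, 225, 293, 657 and 432 to 44.6, 50.1, 57.4, 49.9 and 33.3 CPM in MHC-IIlo and from 231, 167, 266, 564 and 489 to 162, 181, 118, 97.1 and 180 CPM in MHC-IIhi cells. Fresh libraries 4 and 5 were the highest of each subset, and the difference was -1.77 ± 0.44 (adjusted p = 0.00827). Ak4, a mitochondrial adenylate kinase, had -1.86 ± 0.25 and Pdk1, the kinase that closes pyruvate entry into mitochondria, -1.28 ± 0.18. Hif1a itself was lower. Bnip3l (-0.38 ± 0.16, adjusted p = 0.114), the lipid droplet gene Hilpda (-1.19 ± 0.43, adjusted p = 0.0666), Car9 and Narf did not pass.

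Glycolysis followed, with 14 of 23 tested genes lower, none higher and a median difference of -0.77. Pfkfb3 (ENSMUSG00000026773, chr2:11471433-11554077), whose product makes the activator of phosphofructokinase, measured 115, 105, 97, 160 and 172 CPM in fresh and 155, 175, 142, 151 and 147 CPM in cultured MHC-IIlo cells, which overlapped. In MHC-IIhi cells it measured 81.7, 60.2, 66.9, 108 and 111 CPM fresh and 410, 440, 413, 460 and 453 CPM cultured, all above. The difference of -2.10 ± 0.23 (adjusted p = 2.88e-06) came with a rise of 2.35 in MHC-IIhi cells and a change of 0.25 in MHC-IIlo cells that did not pass.

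Pgk1 (ENSMUSG00000062070, chrX:106187100-106203699), phosphoglycerate kinase, differed in the other way. It went from 314, 297, 289, 368 and 303 to 115, 150, 140, 125 and 105 CPM in MHC-IIlo cells, with no overlap. It measured 324, 321, 338, 419 and 343 CPM in fresh and 443, 435, 268, 259 and 479 CPM in cultured MHC-IIhi cells, of which libraries 5 and 6 were the lowest. Its difference was -1.41 ± 0.22 (adjusted p = 0.000134). The glucose transporter Slc2a1, the hexokinases Hk1 and Hk2 (-1.08 ± 0.20), Pfkl (-1.22 ± 0.19), Ldha and the lactate exporter Slc16a3 were also lower, and Aldoa (-0.54 ± 0.22, adjusted p = 0.116) and Hk3 (-0.43 ± 0.22, adjusted p = 0.212) did not pass. Gapdh, Slc2a3, Pgam1, Pfkp, Pfkm, Pfkfb4 and Slc16a1 were tested without passing as well.

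In the TCA cycle 7 of 24 genes were higher and none lower, with a median of 0.17, among them Sdha (0.64 ± 0.11, adjusted p = 0.000352), a subunit of succinate dehydrogenase, which measured 183 to 192 and 231 to 283 CPM in fresh and cultured MHC-IIlo and 186 to 221 and 151 to 184 CPM in MHC-IIhi cells. Idh3g (0.61 ± 0.11) and Suclg1 (0.55 ± 0.11) followed, and 4 of the list were higher without the fresh libraries 4 and 5 of both subsets. Of 55 nuclear genes of the respiratory chain 4 were higher (7.27% of the list, none lower), and of 73 cytosolic ribosomal protein genes 6 were, while all 73 fell in both subsets. These shares are near the 6.03% of all tested genes. Without fresh MHC-IIhi library 3 no respiratory chain gene was higher, and without fresh MHC-IIhi library 4 only 1 ribosomal gene was. 3 of 7 tested mitochondrially encoded genes were lower, with mt-Nd1 at -1.30 ± 0.19. When 1 library was left out that count ran from 2, as without fresh MHC-IIhi library 1, to 5, without fresh MHC-IIhi library 5, and it was 1 with the lactate libraries in the fit.

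Genes of mature, migrating dendritic cells were lower as a group, 14 of 19 with none higher and a median of -2.40. In MHC-IIhi cells 14 rose and 4 fell, with a median change of 2.35, and in MHC-IIlo cells 5 rose and 6 fell, with a median change of 0.04. The list was written from genes that dendritic cells switch on as they mature, and some of them, such as Cd40, Relb and Traf1, are also induced in activated macrophages. In bulk RNA a change in the number of cells of a type and a change in RNA per cell cannot be told apart, here or in any other group of genes described.

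Ccr7 (ENSMUSG00000037944, chr11:99144196-99155077), the chemokine receptor that leads dendritic cells to lymph nodes, measured 5.55, 1.96, 9.22, 5.97 and 2.5 CPM in fresh and 124, 72.5, 217, 205 and 107 CPM in cultured MHC-IIhi cells. In MHC-IIlo cells it measured 1.37, 1.35, 0.606, 0.47 and 0.159 CPM fresh and 0.521, 3.16, 0.114, 0.125 and 0.152 CPM cultured, with overlap. The highest cultured MHC-IIlo value was that of library 3, and libraries 5 and 6 were highest among cultured MHC-IIhi cells. The difference was -4.79 ± 1.02 (adjusted p = 0.00294), and from -6.55 to -4.02 under the alternatives.

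Ccl22, a chemokine for regulatory T cells, measured 22.4, 9.6, 24.7, 11 and 6.33 CPM in fresh and 231, 146, 275, 303 and 232 CPM in cultured MHC-IIhi cells, and 0.477 to 1.95 and 0.189 to 2.23 CPM in MHC-IIlo cells. Il4i1, an amino acid oxidase, measured 2.16, 1.09, 1.69, 0.498 and 1.02 CPM fresh and 91.5, 53.7, 117, 135 and 75.6 CPM cultured in MHC-IIhi cells, and 0.433 to 1.54 and 0.669 to 2.58 CPM in MHC-IIlo cells. Both rose in MHC-IIhi cells without overlap, neither had a called change in MHC-IIlo cells, and the tests of the difference gave -4.64 ± 0.70 (adjusted p = 0.000132) and -5.90 ± 0.58 (adjusted p = 8.21e-07). Cd40, a costimulatory receptor, rose in both subsets, from 13 to 17.7 to 18.8 to 33.2 CPM in MHC-IIlo and from 6.82 to 12.5 to 83.4 to 114 CPM in MHC-IIhi cells, a difference of -2.53 ± 0.24 (adjusted p = 7.37e-07). Cd83 had -1.09 ± 0.52 and did not pass (adjusted p = 0.182). Ccl17, Cd200, Birc2 and Anxa3 did not pass either.

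The defining markers of dendritic cells were at low levels and moved in part with these genes. Flt3, the dendritic cell growth factor receptor, measured 2.1, 1.8, 3.76, 1.69 and 1.53 CPM in fresh and 26.1, 16.1, 49.1, 35.6 and 18.3 CPM in cultured MHC-IIhi cells, where libraries 5 and 6 were again highest, and at most 0.539 CPM in any MHC-IIlo library. Zbtb46, a transcription factor of classical dendritic cells, had 1.74 to 6.9 CPM fresh and 3.26 to 10.5 CPM cultured in MHC-IIhi cells, and 0.865 to 1.32 and 0.139 to 0.495 CPM in MHC-IIlo cells. Batf3 had 3.33 to 5.2 and 1.48 to 2.6 CPM in MHC-IIhi cells. Cd209a, a lectin of monocyte-derived dendritic cells, had 6.17 to 19.2 CPM in fresh MHC-IIhi cells and at most 0.167 CPM in any cultured library of either subset, so no fold is given for it although it was called. Of 10 tested dendritic cell markers 3 were lower and 1 higher, with a median of -0.42. The summed level of the 12 dendritic cell markers was 170 to 210 CPM in fresh and 115 to 317 CPM in cultured MHC-IIhi cells, and 161 to 261 and 12.2 to 24.6 CPM in MHC-IIlo cells. In fresh MHC-IIlo cells Flt3, Zbtb46, Batf3 and Cd209a reached only 0.532, 1.32, 1.2 and 1.11 CPM. Most of the sum in those cells thus came from other members. The summed level of the 19 migratory genes was 957 to 1290 and 1490 to 2620 CPM in MHC-IIhi cells, and 900 to 1250 and 535 to 632 CPM in MHC-IIlo cells. The part of dendritic cells in the result was not tested.

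Markers of other cells that the sort could have held were examined in the same way. Of 10 tested fibroblast markers 7 were lower, with a median of -2.56, Col1a1 (-2.94 ± 0.82) and Pdgfrb (-3.20 ± 0.58) among them, but their summed level was at most 139 CPM in any library (32.9 to 84.4 and 47.5 to 128 CPM in fresh and cultured MHC-IIhi cells, 43.7 to 139 and 45.3 to 80.8 CPM in MHC-IIlo cells). Only 1 was lower without the fresh libraries 4 and 5 of both subsets, and 4 without cultured MHC-IIhi library 5. 3 of 6 endothelial markers were lower, Pecam1 (-2.20 ± 0.20), which macrophages also make, Cdh5 (-2.42 ± 0.37) and Kdr (-1.69 ± 0.29). Kdr rose in both subsets, from 1.96 to 4.54 to 278 to 592 CPM in MHC-IIhi and from 6.91 to 10.7 to 262 to 359 CPM in MHC-IIlo cells. Pecam1 fell in both. The 8 endothelial markers summed to 142 to 178 and 480 to 814 CPM in fresh and cultured MHC-IIhi cells. In MHC-IIlo cells the endothelial sums were 135 to 159 and 402 to 520 CPM. No marker of T and NK cells (11 tested), B cells (4 tested) or epithelial and tumour cells (3 tested) was called. Ly6g stayed at or under 0.357 CPM, Ncr1 at or under 0.376 CPM and Krt18 at or under 0.0471 CPM in every library. Other markers of the same cell types stood above that. Csf3r was at least 31.4 CPM and Krt8 at least 28.4 CPM in every library. Cdh1 measured 365 to 467 CPM in fresh MHC-IIhi cells, and Gzmb reached 12 CPM in cultured ones. Of 7 tested neutrophil markers 2 were lower and none higher, with a median of -1.17. The 13 neutrophil markers summed to 272 to 718 CPM in fresh and 762 to 1110 CPM in cultured MHC-IIhi cells. In MHC-IIlo cells they summed to 1010 to 2020 and 790 to 1080 CPM. Monocyte markers summed to 16800 to 25400 and 928 to 2540 CPM in fresh and cultured MHC-IIhi cells and to 9040 to 13500 and 1030 to 1730 CPM in MHC-IIlo cells, with 5 of 12 lower, such as Hp (-2.29 ± 0.56), and Ly6a higher (1.16 ± 0.29); with the lactate libraries in the fit 1 was lower. The part of these cells in the result was not tested.

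Macrophage identity genes were lower for 8 of 16 tested, with none higher and a median of -0.60. Adgre1, the gene of the surface protein F4/80, measured 572, 455, 483, 610 and 748 CPM in fresh and 1029, 885, 589, 769 and 775 CPM in cultured MHC-IIlo cells. Its MHC-IIhi values were 209, 101, 166, 205 and 235 CPM fresh and 910, 706, 705, 867 and 728 CPM cultured. Fresh MHC-IIhi cells had less of it than all other groups, the cultured subsets overlapped, and the difference was -1.60 ± 0.26 (adjusted p = 0.000291). The scavenger receptor gene Marco (-4.55 ± 0.70, adjusted p = 0.000159), the transcription factor gene Maf (-1.65 ± 0.34) and Cd14 were also lower, as were Itgam, Msr1, Siglec1 and Fcgr1. Cd68 (0.11 ± 0.20) and Lyz2 (0.52 ± 0.28) did not pass. With the lactate libraries in the fit 4 genes of this list were lower.

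Matrix remodelling genes were lower for 12 of 21 tested and higher for 1, Mmp19. Mmp13, a collagenase, measured 989 to 2232 and 1105 to 1838 CPM in fresh and cultured MHC-IIlo cells and 213 to 750 and 1431 to 2519 CPM in MHC-IIhi cells, a difference of -2.01 ± 0.41 (adjusted p = 0.00199) that closed the gap of fresh cells. Mmp2 (-3.27 ± 0.58), Mmp9 (-1.78 ± 0.42), Mmp14 (-1.21 ± 0.22) and Fn1 (-1.07 ± 0.28) followed, and Mmp12 (-0.17 ± 0.33) and Thbs1 (-0.26 ± 0.43) did not pass. Sparc, Mmp2 and Lox are also made by fibroblasts, whose markers are given above.

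Among well-expressed genes with a higher change, Egr2 led. Egr2 (ENSMUSG00000037868, chr10:67535475-67542188), a zinc finger transcription factor of alternatively activated macrophages, measured 140, 131, 166, 252 and 190 CPM in fresh and 35.9, 23.5, 34.6, 38.1 and 48.1 CPM in cultured MHC-IIlo cells. In MHC-IIhi cells it went from 286, 323, 344, 491 and 461 to 10.5, 17.8, 22.4, 23.1 and 8.86 CPM. It fell in both subsets and fell further in MHC-IIhi cells, so that the order of the subsets turned round with no overlap in either state. The difference was 2.25 ± 0.35 (adjusted p = 0.000171). Among 24 immediate early genes, which the dissociation of tissue is known to induce, Egr2 was higher and 4 were lower in this fit, while 21 fell in MHC-IIlo and 19 in MHC-IIhi cells. Fos (-0.15 ± 0.30) and Junb (-0.35 ± 0.21) did not pass.

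Lpl (ENSMUSG00000015568, chr8:68880491-68907448), lipoprotein lipase, moved in opposite directions. It measured 149, 171, 119, 117 and 126 CPM in fresh and 581, 305, 326, 338 and 361 CPM in cultured MHC-IIlo cells, and 296, 343, 291, 320 and 371 CPM in fresh and 194, 232, 222, 320 and 107 CPM in cultured MHC-IIhi cells. The MHC-IIlo groups did not overlap, and MHC-IIlo library 1 was the highest of its group. The difference was 2.08 ± 0.30 (adjusted p = 6.33e-05), with an adjusted p of 0.0683 when the 10 lactate libraries were added to the fit. Pparg, a nuclear receptor that drives lipid uptake genes, was of low level, with 0.636 to 1.36 and 6.9 to 11.4 CPM in MHC-IIlo and 1.2 to 2.99 and 1.83 to 4.11 CPM in MHC-IIhi cells (2.43 ± 0.39, adjusted p = 0.00021). Of 20 lipid handling genes 3 were higher, the other being the lysosomal lipase Lipa, and 3 lower, the cholesterol exporter Abca1 (-1.55 ± 0.30), the fatty acid receptor Cd36 (-1.12 ± 0.28) and Npc1. With the lactate libraries in the fit 1 of this list was higher and 2 were lower.

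Fam198b (ENSMUSG00000027955, chr3:79884533-79946280) also moved both ways, from 37.7, 30.8, 32.1, 37.8 and 48.3 to 55.4, 73.4, 81, 62.1 and 83.8 CPM in MHC-IIlo and from 29.3, 24.6, 27.4, 32.6 and 32.5 to 12.9, 22.5, 10.1, 14.3 and 17.1 CPM in MHC-IIhi cells, with no overlap within either subset (1.86 ± 0.24, adjusted p = 2.04e-05). Syn1 (ENSMUSG00000037217, chrX:20860511-20921004), a vesicle-binding protein best known from nerve endings, measured 73.4, 75.9, 62.9, 72.4 and 61 and 75.3, 73.6, 59.1, 60.4 and 56.6 CPM in fresh and cultured MHC-IIlo cells, which overlapped. In MHC-IIhi cells it fell from 135, 161, 123, 130 and 130 to 49.4, 44.3, 36.2, 33.1 and 37.8 CPM. The difference was 1.67 ± 0.16 (adjusted p = 6.69e-07).

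Tmem154 rose in MHC-IIlo cells, from 21.5 to 32.3 to 116 to 141 CPM, and measured 54.4 to 71.9 and 48.3 to 127 CPM in MHC-IIhi cells (1.91 ± 0.24, adjusted p = 1.48e-05). The lectin receptor gene Clec12a moved both ways (1.71 ± 0.29, adjusted p = 0.000353). Matk, a tyrosine kinase that restrains Src kinases, fell almost to the same low level in both subsets. It went from 30.8 to 37 to 2.06 to 4.24 CPM in MHC-IIlo and from 76.5 to 114 to 1.42 to 3.45 CPM in MHC-IIhi cells (1.80 ± 0.26, adjusted p = 9.32e-05). Trerf1 (1.68 ± 0.21) and the decoy receptor gene Il1r2 (1.56 ± 0.27, adjusted p = 0.00045) likewise fell further in the subset that had more of them when fresh.

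Rin3 (ENSMUSG00000044456, chr12:102283048-102390855), an exchange factor of the endosomal GTPase RAB5, shows such a narrowing with little spread. It measured 34.4, 34.1, 31.2, 37.2 and 36.6 CPM in fresh and 14.6, 15.1, 12.2, 13.4 and 13.8 CPM in cultured MHC-IIlo cells, and 216, 268, 210, 221 and 217 and 29, 28.9, 28, 35.3 and 28.6 CPM in MHC-IIhi cells. The subsets did not overlap in either state. The gap went from -2.71 to -1.12 on the log2 scale, a difference of 1.59 ± 0.12 (adjusted p = 3.26e-08).

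Of 13 MHC class II genes, 10 fell and 1 rose in MHC-IIlo cells, and 11 fell and 1 rose in MHC-IIhi cells. For 4 of them the change was higher in MHC-IIlo cells and for none lower, and 9 did not pass the test of the difference, with median changes of -1.64 in MHC-IIlo and -2.28 in MHC-IIhi cells and a median difference of 0.65. The 4 were H2-DMa and H2-DMb1, which encode the exchange factor that loads peptides, H2-Ob, which encodes a chain of its inhibitor, and Ifi30, a lysosomal thiol reductase (0.84 ± 0.20, adjusted p = 0.00817). H2-Ob lost its call without cultured MHC-IIlo library 3, 4 or 6 (edgeR, adjusted p = 0.0871, 0.0572 and 0.127). With the lactate libraries in the fit H2-DMa and Ifi30 lost theirs (edgeR, adjusted p = 0.0504 and 0.118). H2-DMb1 (ENSMUSG00000079547, chr17:34153072-34160230) measured 46.5, 56.9, 51.9, 47.4 and 40.3 CPM in fresh and 17.9, 25.5, 15.1, 17.2 and 16.1 CPM in cultured MHC-IIlo cells. The MHC-IIhi libraries of H2-DMb1 held 413, 492, 449, 526 and 445 CPM fresh and 63.9, 62.3, 40.4, 73.8 and 40 CPM cultured. Cultured MHC-IIlo library 3 was the highest of its group. The difference was 1.65 ± 0.23 (adjusted p = 4.39e-05), and 1.47 to 1.77 under the alternatives.

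H2-Ab1 measured 68.1, 124, 114, 83 and 55.4 CPM in fresh and 28.7, 72.7, 15.8, 15 and 18.7 CPM in cultured MHC-IIlo cells, and 4403, 5294, 4759, 5416 and 4443 and 1336, 1144, 923, 1541 and 784 CPM in MHC-IIhi cells. The subsets stayed far apart in both states. The difference of 0.53 ± 0.47 did not pass (adjusted p = 0.521), and its 95% interval ran from -0.46 to 1.51. Cd74, the invariant chain, had -0.51 ± 0.42 (interval -1.39 to 0.37, adjusted p = 0.483), and the class II transactivator Ciita 0.85 ± 0.56 (interval -0.31 to 2.00, adjusted p = 0.349). These intervals do not show that the falls were alike. Without cultured MHC-IIlo library 3 the median of the list was -0.10, 3 members were higher and 1 was lower, so the direction of the median rests on that library. The lower member was Cd74, with -1.05 (adjusted p = 0.0185), while H2-Ab1 had -0.10 (adjusted p = 0.883). On log2(FPKM + 1) 7 members were higher, and with the lactate libraries in the fit 2 were. B cells, which also carry MHC class II, had marker sums of 14.8 to 34.6 and 27.3 to 57.2 CPM in fresh and cultured MHC-IIhi cells and 3.5 to 12.1 and 24.3 to 39.2 CPM in MHC-IIlo cells, and their part in the result was not tested.

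**Figure D4:**
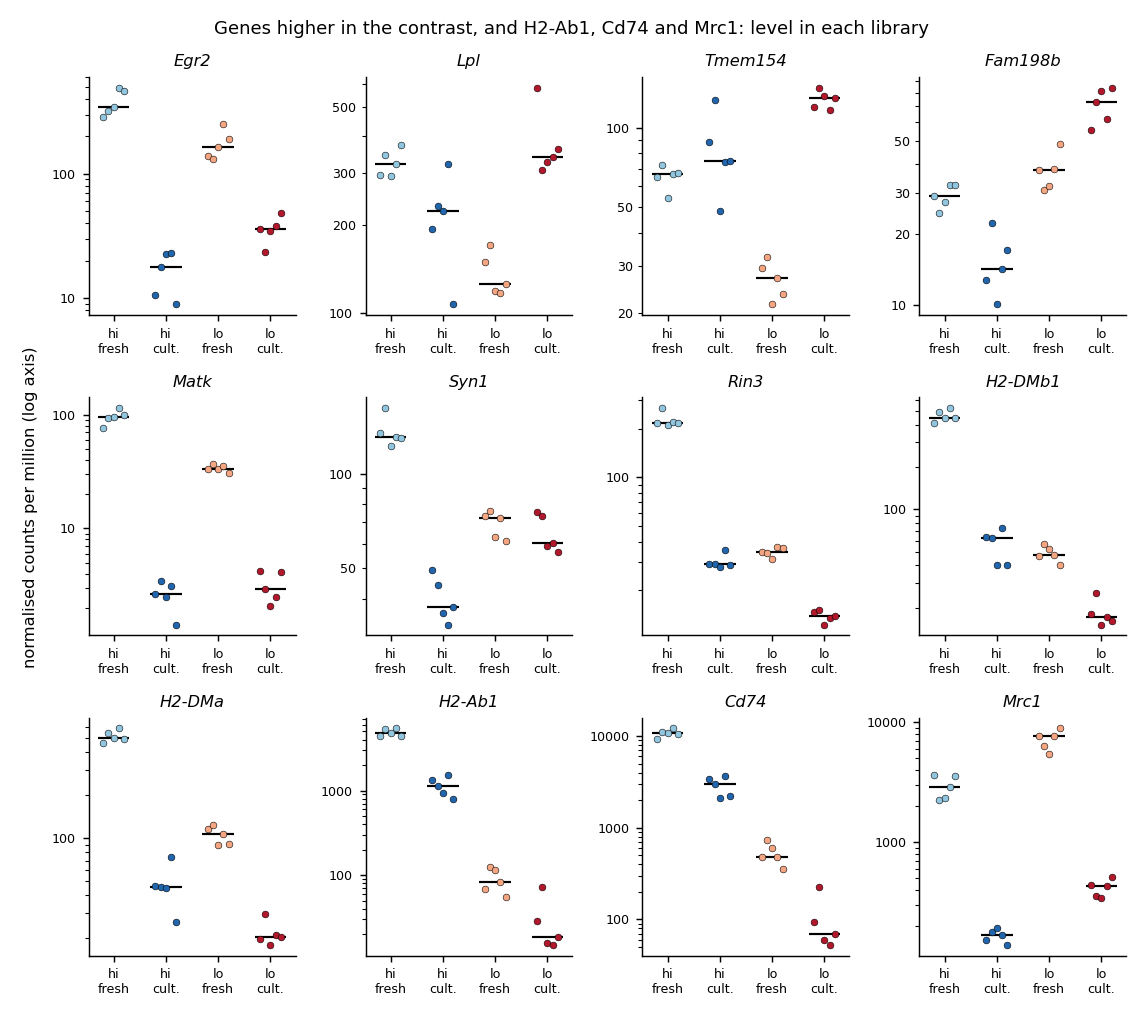
Level of 12 genes in CPM on a log axis, with 1 point per library, a dash at the median of the 5 libraries, and the groups fresh and cultured MHC-IIhi (blue) and fresh and cultured MHC-IIlo (red) from left to right. Egr2 to H2-DMa had a culture change that was higher in MHC-IIlo cells, while H2-Ab1, Cd74 and Mrc1 did not pass, and cultured MHC-IIlo library 3 stands above its group in H2-DMb1, H2-Ab1 and Cd74.

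Several genes with large changes in culture did not pass the test of the difference on counts. Mrc1, the mannose receptor, went from 7602, 6325, 5470, 7738 and 8869 to 439, 354, 339, 432 and 510 CPM in MHC-IIlo and from 3621, 2240, 2332, 2857 and 3563 to 151, 179, 193, 167 and 139 CPM in MHC-IIhi cells. The falls were -4.12 and -4.14 on the log2 scale, and the difference was 0.02 ± 0.23 with a 95% interval of -0.45 to 0.49 (adjusted p = 0.968). On log2(FPKM + 1) Mrc1 was called higher, with 1.05 (limma, adjusted p = 0.00169). Cd274, the checkpoint ligand PD-L1, rose by 3.32 and 3.31, with a difference of 0.01 ± 0.18 and an interval of -0.36 to 0.38. The MHC class I gene H2-D1 had a difference of -0.01 ± 0.20 with an interval of -0.43 to 0.41, and was called lower on log2(FPKM + 1), with -0.95 (limma, adjusted p = 2.69e-06). Cd163, the haemoglobin scavenger receptor, fell steeply, from 443 to 726 to 0.904 to 2.93 CPM in MHC-IIlo and from 59.5 to 132 to 0.435 to 0.814 CPM in MHC-IIhi cells, and its difference of -0.83 ± 0.42 did not pass on counts (interval -1.71 to 0.06, adjusted p = 0.218). On log2(FPKM + 1) Cd163 was called lower, with -2.32 (limma, adjusted p = 3.99e-07), and on log2(FPKM + 0.1) with -1.57 (limma, adjusted p = 0.000754).

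Alternative activation genes therefore had no common direction: 2 of 17 were higher (Egr2 and the lectin gene Mgl2, 1.53 ± 0.50, adjusted p = 0.0428), 3 lower (Arg1, the interleukin 4 receptor gene Il4ra with -1.23 ± 0.24, and Stab1) and 12 did not pass. Mgl2 lost its call under many alternatives, among them leaving out any 1 of the fresh MHC-IIhi libraries, with an adjusted p of up to 0.129 (limma voom). The number of higher members of the list ran from 1 to 4 over 32 alternatives. Interferon-stimulated genes rose in both subsets, 32 of 33 in each, and 7 were lower, all after a rise in both, among them Rsad2 (-1.75 ± 0.27), Cmpk2 (-1.53 ± 0.28), Gbp5 (-1.44 ± 0.27), Oasl1 (-1.36 ± 0.27), Cxcl10 and Irf7. Without cultured MHC-IIhi library 7, 13 of them were lower. Costimulation and checkpoint ligands were lower for 4 of 12, Cd40, Pdcd1lg2 (-1.91 ± 0.27), Tnfsf9 (-1.28 ± 0.32) and Cd86 (-1.01 ± 0.18). Cell cycle genes had 1 of 32 lower, Tyms (-0.95 ± 0.20), a share of 3.12% against 8.27% of all tested genes.

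**Figure D5:**
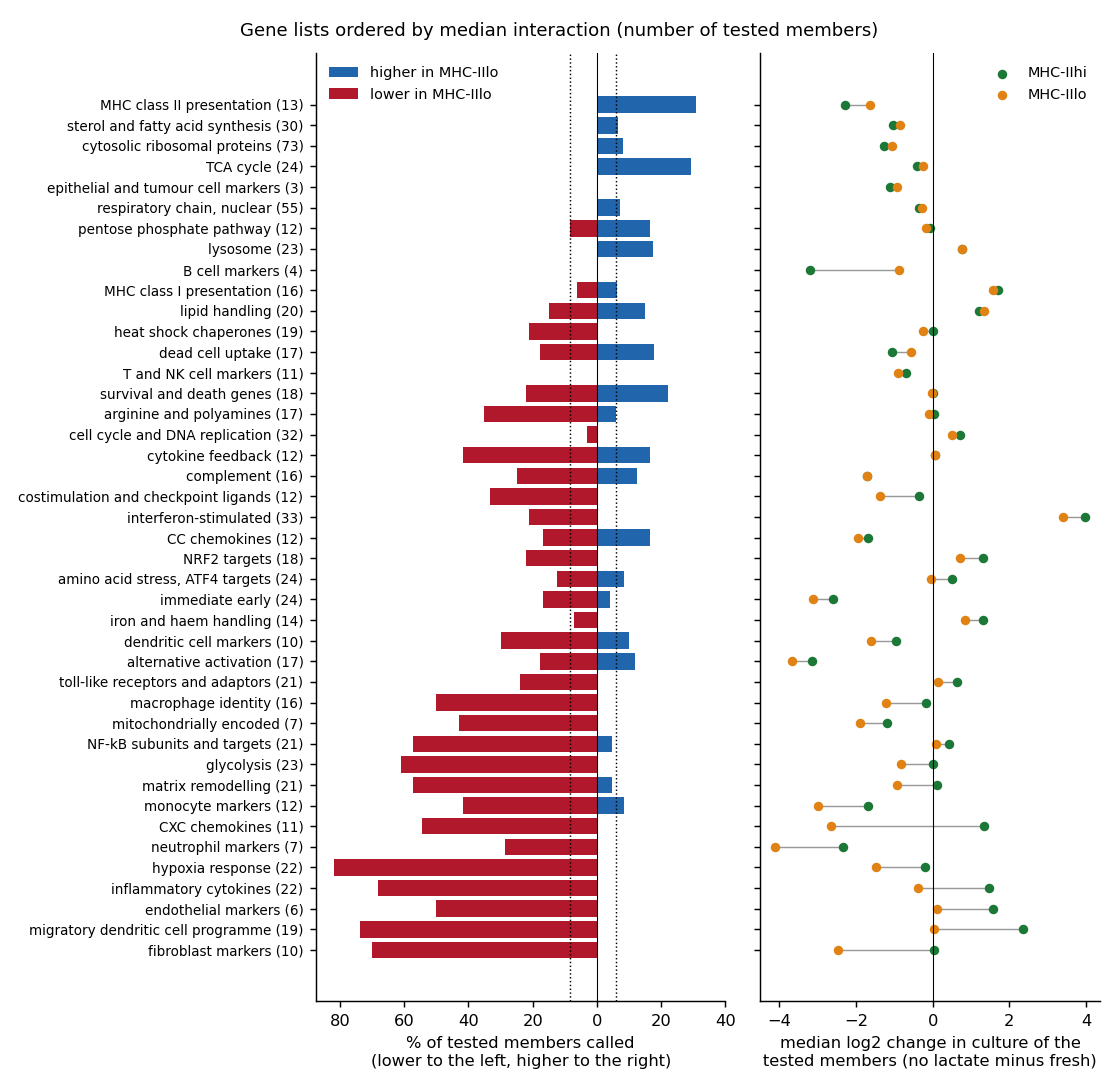
Left, share of the tested members of each of 42 gene lists whose culture change was higher (blue, to the right) or lower (red, to the left) in MHC-IIlo cells, with dotted lines at the 6.03% and 8.27% of all tested genes. Right, median log2 change in culture of the same members in MHC-IIhi (green) and MHC-IIlo cells (orange): the hypoxia response has 18 of 22 members lower, and the CXC chemokines have medians of 1.35 and -2.66.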

How the data were processed

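Per the submitters' processing notes, the authors trimmed reads with Trimmomatic, aligned them with STAR to GRCm38 and counted reads per gene with featureCounts (versions not given in the sources used here). The deposited raw count table (46603 genes, not normalised) was the main input, and the deposited FPKM table of the authors, whose filter and normalisation are not stated, served for alternatives only. Cultured columns were placed in their group by name, because their numbers differ from those of the sample labels.

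Counts of genes that passed filterByExpr, with TMM scaling, went into a quasi-likelihood F test of edgeR 4.0.16 (R 4.3.3) on 4 group means, 2-sided, with Benjamini-Hochberg adjustment over 13682 genes. A gene was called at an adjusted p under 0.05. The script was tested on simulated data. Values are mean or single-library CPM, and errors of log2 differences are standard errors from the F statistic. limma 3.58.1 and DESeq2 1.42.0 gave alternatives.

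Gene lists (42, written from general knowledge), members and the rule for named genes were chosen with earlier results of these data known. The rule took the 12 largest differences of each sign at an average log2 CPM of at least 5, the 3 smallest p of each gap pattern and sign, up to 4 called and 2 uncalled members of each list, and 10 fixed genes. Other list members are named to complete the counts of their list and were chosen after their values were seen. Some members are not reported here. Promoter windows from RefSeq were found for 70.9% of tested genes, and for 75.6% and 73.8% of those called higher and lower, under the 80% needed, so no motif share over called genes is given. Depth per library is given in the report, and the sampling error it leaves is part of each standard error.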

Additional observations from a re-analysis of the deposited data

Results flagged for a closer look

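Culture changes that differ between 2 groups by a test of the difference are the subject of the report, and 1957 genes passed that test. Of 31 leading and fixed genes, 7 also had a called rise in 1 subset and a called fall in the other: Clec12a had a difference of 1.71 (a log2 change of 1.05 in MHC-IIlo and -0.67 in MHC-IIhi cells), Fam198b 1.86 (0.93 and -0.93), Lpl 2.08 (1.49 and -0.59), Cxcl1 -4.20 (-2.85 and 1.35), Cxcl3 -4.64 (-3.04 and 1.61), Fpr1 -3.59 (-1.12 and 2.46) and Samsn1 -3.50 (-2.77 and 0.73).

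In 9 of 124 groups of 5 libraries, over 31 genes, 1 library lay apart from the other 4 by Dixon's criterion, where chance gives about 1 in 20. Cultured MHC-IIlo library 3 gave 4 of them: 3.16 CPM of Ccr7 against 0.114 to 0.521, 225 CPM of Cd74 against 52.7 to 93, 72.7 CPM of H2-Ab1 against 15 to 28.7 and 25.5 CPM of H2-DMb1 against 15.1 to 17.9. Lpl was 581 CPM in cultured MHC-IIlo library 1 against 305 to 361. Rin3 was 268 CPM in fresh MHC-IIhi library 2 against 210 to 221, and 35.3 CPM in cultured MHC-IIhi library 6 against 28 to 29. Tnfrsf9 was 405 CPM in fresh MHC-IIhi library 4 against 255 to 280, and Trerf1 24.7 CPM in fresh MHC-IIlo library 1 against 19.5 to 20.8.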

How the results depend on the processing

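The difference in culture change was called for 1936 genes with RLE size factors, 1683 with no filter on low counts, 2341 with DESeq2, 2448 with limma voom, 1348 with the 10 lactate libraries in the fit, and 2199, 2095 and 2506 on log2(FPKM + 1), log2(FPKM + 0.1) and log2(FPKM + 1) with no filter. Higher genes, 825 in the report, numbered 490 with the lactate libraries and 1374 on FPKM with no filter. Of called genes 42.2% were higher on counts and 55.1%, 54.2% and 54.8% on the FPKM settings. The cause was not tested. Leaving out 1 library gave 1645 to 2058 called genes (658 to 863 higher, 970 to 1195 lower), 7440 to 8058 for culture in MHC-IIlo cells (3548 to 3883 up, 3848 to 4175 down) and 8127 to 8607 in MHC-IIhi cells (4120 to 4422 up, 3969 to 4198 down).

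Without the 4 fresh libraries numbered 4 and 5, 1077 genes were called (375 higher, or 34.8%, and 702 lower) with 16 libraries left, and without cultured MHC-IIhi libraries 5 and 6, 2276 were. Both were chosen after seeing the data. A replicate block within fresh and within cultured libraries gave 2760 called genes, 1829 of them shared, with 3 immediate early genes higher and 13 lower, and 1 block over both 1918. With the block within each state, 25 genes named by the rule gained a call and 2 lost it. Cd83, Ppbp and Hilpda, given above as not passing, were among those gained (edgeR, adjusted p = 9.33e-05, 9.78e-05 and 0.00015). The numbers were not taken to pair libraries: the correlation of same-numbered deviations was 0.06 to 0.417 between fresh subsets, -0.00967 to 0.274 between cultured subsets and -0.186 to 0.108 between fresh and cultured libraries, and 4 of 5 fresh libraries correlated best with their own number.

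Of 166 called genes named by the rule, 114 stayed called under all settings run. The direction turned on FPKM for Vdr (0.014 on log2(FPKM + 1), with and without the filter), Cdh1 (1.18 on both) and Ctsd (-1.20 on log2(FPKM + 1) with and without the filter, -1.21 on log2(FPKM + 0.1)), of which the last 2 were not called on counts. On log2(FPKM + 0.1) Vdr kept its direction and its call, and Cdh1 was not called. Cause was not tested here either. Low genes are limited by depth: a CPM of 0.1 in a cultured library stands on a few reads.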

Other observations

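Gene groups not described above had mixed or narrow differences. Among 18 survival and death genes 4 were higher, Bcl2, Bak1, Bid and Casp9, and 4 lower, among them Bcl2a1a (-1.44 ± 0.14 SE, adjusted p = 7.45e-07), Bcl2a1b (-0.79 ± 0.17) and the cell cycle inhibitor gene Cdkn1a (-1.20 ± 0.28). Without fresh MHC-IIhi library 1, 2 of the list were higher, and none without the fresh libraries 4 and 5 of both subsets. The Bcl2a1 genes are near-identical copies, so the split of reads between them is uncertain. Of 19 heat shock and chaperone genes 4 were lower, all but Dnajb4 (-0.82 ± 0.26) being chaperones of the endoplasmic reticulum: Hspa5 (-0.92 ± 0.28), Hsp90b1 (-0.80 ± 0.16) and Dnajb9 (-0.99 ± 0.29). Of this list 1 gene was lower without fresh MHC-IIlo library 5, and none on log2(FPKM + 1). The cytosolic chaperones Hspa8 (0.48 ± 0.17, adjusted p = 0.0732) and Hsp90ab1 (0.16 ± 0.16) did not pass.

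Of 23 lysosome genes 4 were higher and none lower, with a median difference of 0.09, among them the regulator gene Tfeb (0.86 ± 0.14, adjusted p = 0.000295), Lipa (0.73 ± 0.21) and Psap (0.71 ± 0.21). On log2(FPKM + 1) 3 members of this list were lower. Psap had a difference of exactly 0 in every FPKM setting, which libraries that vary would not give. That value is therefore not read as an absence of difference, and its cause was not tested. With the lactate libraries in the fit Lipa and Psap did not pass (edgeR, adjusted p = 0.216 and 0.128), and 2 of the list were higher. Dead cell uptake genes split, with the receptor gene Axl (1.29 ± 0.31, adjusted p = 0.00712), its ligand Gas6 and Elmo1 higher, and Stab1 (-1.25 ± 0.37), Cd36 and Itgav (-0.83 ± 0.16) lower among 17. Without fresh MHC-IIhi library 1, 1 of them was higher, and without the fresh libraries 4 and 5 of both subsets none was, with Axl at an adjusted p of 0.0712. The cytokine feedback genes Socs1 (-1.03 ± 0.23), Socs2 (-2.48 ± 0.25) and Socs3 (-1.32 ± 0.32) were lower, with Cish and Il2ra, while Socs6 (1.11 ± 0.15, adjusted p = 2.55e-05) and Il7r were higher. Of 16 complement genes 2 were higher and 4 lower, among the latter C3 (-1.53 ± 0.18, adjusted p = 5.31e-06) and its receptor gene C3ar1 (-1.02 ± 0.21). C1qa (0.04 ± 0.29) and C1qb (0.11 ± 0.35) did not pass. On log2(FPKM + 1) C3ar1 had -0.28 and was not called (limma, adjusted p = 0.662). Of 18 NRF2 targets 4 were lower, among them the cystine transporter gene Slc7a11 (-1.77 ± 0.30, adjusted p = 0.000399) and Hmox1 (-1.51 ± 0.43, adjusted p = 0.0223).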
